A study of Mus musculus with 11 samples.

Results

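Among the cells of the E14.5 dorsal telencephalon, a small set of Dlx-positive cells carried transcripts of Six3, Isl1 or Ebf1. These are transcription factors known from neurons of the striatum. The set was limited to cells with few or no transcripts of cell division. These striatal-like cells numbered 217 of the 16335 cells kept, 97 of 7554 in the WT library and 120 of 8781 in the cKO library. A cell was taken when it had at least 1000 genes and at most 10% mitochondrial transcripts, at least 3 unique molecular identifiers (UMIs, each standing for 1 captured transcript) of Dlx1, Dlx2, Dlx5 and Dlx6os1 together, and at least 2 UMIs of Six3, Isl1 and Ebf1 together. It also had to have no Lhx6 UMI, at most 1 Adarb2 UMI and at most 2 UMIs of Top2a and Mki67 together. Lhx6 marks interneurons of the medial ganglionic eminence, Adarb2 marks many of those of the caudal ganglionic eminence, and Top2a and Mki67 mark dividing cells. Because these counts chose the cells, the levels of those genes, and every contrast of the chosen cells with other cells, are given as a description and were not tested.

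The study asked how loss of Syncrip, an RNA-binding protein, alters neurogenesis in the mouse neocortex. Single-cell libraries were made from a pair of littermates, 1 WT and 1 Syncrip cKO embryo, both on a C57BL/6 background. The cKO embryo carried Syncrip fl/fl alleles with loxP sites around exons 2 to 4 and Emx1-Cre, which acts in the Emx1-expressing lineage of the dorsal telencephalon. RNA-seq was also made from 3 WT and 3 cKO cultures of E14.5 neural progenitor cells (NPCs) kept in growth medium. The labels give no further treatment for either experiment, and nothing in them says that the cultures came from separate animals, so their p-values measure only the spread between these cultures.

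Projection neurons of the striatum are GABAergic and are born in the lateral ganglionic eminence, the ventral neighbour of the pallium, under Dlx transcription factors. They belong to a direct pathway, whose neurons carry the dopamine receptor Drd1 and depend on Isl1 and Ebf1, and an indirect pathway, whose neurons carry the dopamine receptor Drd2, the adenosine receptor Adora2a and the opioid precursor Penk and depend on Six3 and Sp9. Zfhx3, Zfp503 (also called Nolz1), Foxp1, Foxp2, Bcl11b and Meis2 are transcription factors of developing striatal neurons.

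Six3 and Isl1, the genes that divide these cells below, have the following 250 bases before their annotated start in RefSeq on GRCm38.p6. They are shown because both proteins that share these cells, and the Dlx proteins that define the set, are of the homeodomain kind, whose core motif is TAAT. The capitals mark TAAT on either strand, read as TAAT or ATTA, and matches were counted with overlaps allowed. The Six3 sequence lies at chr17:85620584-85620833 on the plus strand and the Isl1 sequence at chr13:116309689-116309938 on the minus strand, each upstream of the first base of the gene and printed in the direction of transcription.
Six3: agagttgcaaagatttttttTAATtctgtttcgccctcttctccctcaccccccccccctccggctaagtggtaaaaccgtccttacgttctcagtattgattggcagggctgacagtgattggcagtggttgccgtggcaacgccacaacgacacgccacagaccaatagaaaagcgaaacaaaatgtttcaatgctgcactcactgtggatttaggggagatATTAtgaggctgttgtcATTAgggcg
Isl1: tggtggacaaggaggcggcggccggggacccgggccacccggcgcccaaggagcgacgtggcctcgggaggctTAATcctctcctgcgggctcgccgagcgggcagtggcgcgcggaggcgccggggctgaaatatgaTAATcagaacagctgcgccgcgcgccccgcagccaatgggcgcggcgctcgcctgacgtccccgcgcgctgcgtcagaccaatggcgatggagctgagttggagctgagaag
The motif occurred 3 times before Six3 and 2 times before Isl1. Of 32851 promoters of the same length, 54.9% held it at least once, 30.8% at least 2 times and 17.3% at least 3 times, so that neither count stood apart. The Isl1 sequence had a GC content of 71.2% and the Six3 sequence 48.8%, against a median of 52.4% over all promoters.

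The WT library held 100172392 UMIs in 8289 barcodes and the cKO library 111313526 UMIs in 9659 barcodes. The striatal-like cells had a median of 8257 UMIs per cell in the WT library (range 2621 to 32700) and 7825.5 in the cKO library (range 1500 to 29584), with medians of 3149 and 3193.5 genes. They were shallower than the excitatory cells of the same libraries, defined by no Dlx UMI and at least 3 UMIs of Neurod2 and Neurod6, which had medians of 13224.5 and 12537 UMIs. With 1 embryo per genotype there is no replicate of any single-cell value. The intervals below are exact 95% intervals on counts, Poisson for levels and binomial (Clopper-Pearson) for shares, and they reflect counting error alone.

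The embryos differed in more than the Syncrip genotype. Xist, the RNA of the inactive X chromosome of female cells, had 0 UMIs in the WT striatal-like cells and 1185 in those of cKO, so that in every comparison of the libraries genotype and sex cannot be told apart. Syncrip itself stood at 292 CPM (counts per 1000000 UMIs of the cells, interval 258 to 329) in the WT library and 307 CPM (275 to 342) in the other, a log2 ratio of 0.07 (-0.16 to 0.31). Where along the gene these UMIs lie was not measured, so they check nothing about the deletion. Emx1, whose promoter drives the Cre, was found in 3 of 97 striatal-like cells in WT and 6 of 120 in cKO, against 35.8% and 33.5% of excitatory cells. Whether Cre had acted in the striatal-like cells was not measured.

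Several barcodes among the chosen cells held transcripts of other cell types. Scrublet called 7 of the 97 WT cells (7.22%) and 11 of the 120 cKO cells (9.17%) doublets, against 7.97% and 9.51% of the other Dlx-positive cells and 3.11% and 4.08% of all cells kept, and they were left in. At least 3 UMIs of Neurod2 and Neurod6, genes of excitatory neurons, were found in 15 WT cells (15.5%, 8.92 to 24.2) and 16 cKO cells (13.3%, 7.82 to 20.8). The 12 genes of the excitatory neuron list together stood at 944 and 1156 CPM in the striatal-like cells, close to the 1111 and 1252 CPM of the other Dlx-positive cells and below the 5304 and 5541 CPM of excitatory cells. One WT cell held 310 of the 321 UMIs of the microglia list. The 2 libraries shared 22 barcodes, and 1 striatal-like cell had such a barcode.

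Zfhx3 and Esrrg were not part of the rule, but were taken as markers of these cells with earlier results of these data known. Their values therefore describe the cells and do not check the name. Zfhx3 was present in 94 of 97 WT cells (96.9%, 91.2 to 99.4) and 111 of 120 cKO cells (92.5%), with a median of 10 UMIs and at most 64 in a WT cell. In excitatory cells, whose share with a UMI was taken as a background, Zfhx3 was found in 9.27% and 9.44%, although those cells were deeper. Single excitatory cells held up to 45 Zfhx3 UMIs in WT and 21 in cKO. The part of free RNA in that background was not measured. Cells with at least 5000 UMIs were also thinned to that depth, which left out the shallower cells, 7 WT and 16 cKO striatal-like cells among them. The shares were then 93.3% and 89.4% of the 90 and 104 striatal-like cells left, and 3.91% and 3.96% of excitatory cells. Zfhx3 was thus present in nearly every chosen cell of both libraries. The level of Zfhx3 was 1447 CPM (1371 to 1526) in the WT library and 1332 CPM (1264 to 1402) in the other, and 135 and 103 CPM in the other Dlx-positive cells. Esrrg, a nuclear receptor, was a weaker mark. It was found in 37 WT cells (38.1%) and 58 cKO cells (48.3%), at 210 CPM (182 to 242) and 253 CPM (224 to 284), against 144 and 124 CPM in the other Dlx-positive cells.

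Of the markers of neighbouring cell types of the ventral telencephalon, some were absent and others shared. Nkx2-1, Lhx8 and Gbx2, transcription factors of the medial ganglionic eminence and its pallidal and cholinergic derivatives, had no UMI in any striatal-like cell. They were 3 of the 14 genes of that list, a lower share than the 49.1% of all genes at 0, so their absence says little. The 14 genes summed to 167 and 315 CPM against 7945 and 8069 CPM in the other Dlx-positive cells. Without Erbb4, the most abundant of them there, the list summed to 142 and 241 CPM against 3150 and 3345. The 8 genes of the dorsal lateral ganglionic eminence and olfactory bulb summed to 152 and 212 CPM against 276 and 243 CPM, and to 288 CPM in the cKO Six3 subgroup, led by Tshz1. The 10 caudal eminence genes summed to 199 and 362 CPM against 1501 and 1684 CPM. Of 12 genes of septal and cholinergic neurons, 9 were at 0, beside 49.1% of all 32285 genes, and the whole list summed to 1.06 and 2.77 CPM. Lists of endothelial cells (9.55 and 3.69 CPM) and red blood cells (76.4 and 144 CPM) were also lower than in excitatory cells.

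Of the 24 genes of the striatal list, 13 had at least 200 UMIs in the striatal-like cells of both libraries together, and 7 of these were at least 2-fold higher than in the other Dlx-positive cells of both libraries. Over all 2094 genes with that many UMIs, 3.10% were at least 2-fold higher and 1.05% at least 2-fold lower in both. The 7 were Zfhx3, Zfp503, Foxp1, Bcl11b, Meis1, Meis2 and Tle4. Their levels carry no test, since the contrast is the one that chose the cells. The minimum of UMIs was also counted in the striatal-like cells alone, so list genes low there dropped out. Neither the number of genes nor the median of the list is therefore support for the name. The median log2 ratio of the list was 1.07 in WT and 1.48 in cKO, beside 0.06 and 0.05 over all genes. Zfp503 led both rankings, against the other Dlx-positive cells and against all other cells. It stood at 416 CPM (376 to 459) in the WT library and 298 CPM (266 to 332) in the other, at 29.6 and 18.2 CPM in the other Dlx-positive cells, and was found in 0.743% and 1.21% of excitatory cells. Meis2, present in all 217 cells, stood at 4693 and 3895 CPM against 1511 and 1201 CPM, and Bcl11b (Ctip2) at 1608 and 1455 CPM against 496 and 533 CPM. Mef2c went the other way, with 159 and 129 CPM and log2 ratios of -1.82 and -2.03 to the other Dlx-positive cells.

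**Figure D1:**
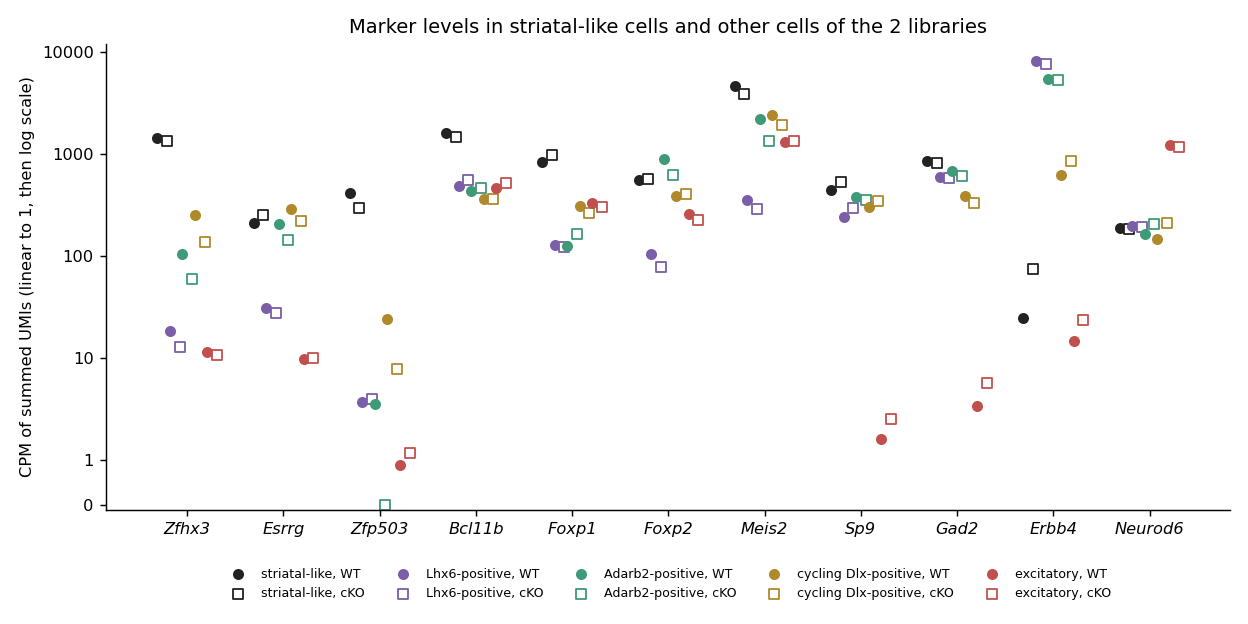
Levels of marker genes, in CPM of summed UMIs on an axis that is linear to 1 and logarithmic above, in striatal-like, Lhx6-positive, Adarb2-positive, cycling Dlx-positive and excitatory cells; filled circles are the WT library and open squares the cKO library, 1 embryo each. Zfhx3 and Zfp503 are high in the striatal-like cells and low in the others, whereas Neurod6 lies near 200 CPM in all Dlx-positive groups. The Adarb2-positive group leaves out cells with 2 or more UMIs of Six3, Isl1 and Ebf1 together.

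The Lhx6-positive, Adarb2-positive and cycling groups in the plot of marker levels were cut from the other Dlx-positive cells. Lhx6 of at least 2 UMIs, Adarb2 of at least 2 UMIs without Lhx6, and Top2a and Mki67 of at least 3 UMIs defined them. The Lhx6-positive and Adarb2-positive groups also had at most 2 UMIs of Top2a and Mki67. The Adarb2-positive group had fewer than 2 UMIs of Six3, Isl1 and Ebf1 together. It thus left out the cells that met the rule in all but Adarb2. Erbb4, the neuregulin receptor of migrating cortical interneurons, was chosen after its values were seen and was low in the striatal-like cells. It stood at 24.4 and 74.7 CPM in the striatal-like cells and at 4795 and 4724 CPM in the other Dlx-positive cells. The other genes that led the contrast with the other Dlx-positive cells were Slit3, a secreted guidance protein, the antisense transcript Six3os1, Pou3f1, Id4, Zfp804a, Syt6, Tshz2, Nedd9, Rmst and Gucy1b1, beside Six3, Isl1 and Ebf1 of the rule. Against all other cells Dach2, Gucy1a1, Meis1, Sp9, Pou3f4 and Gad2 also entered the first 15. Gucy1a1 and Gucy1b1, the subunits of the nitric oxide receptor guanylate cyclase, both stood above the other Dlx-positive cells. Gucy1a1 was at 277 and 251 CPM against 85.1 and 69.1, and Gucy1b1 at 167 and 157 CPM against 31.4 and 30.7.

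The cells were GABAergic by Gad2, which makes GABA from glutamate and was found in 96 of 97 WT cells and 114 of 120 cKO cells, against 3.37% and 5.94% of excitatory cells. The level of Gad2 was 853 CPM (795 to 914) in the WT library and 811 CPM (759 to 867) in the other. Markers of mature direct-pathway neurons had few UMIs or none, whereas some of those of the indirect pathway were found in part of the cells. Drd1 had no UMI in any of the 217 cells, which allows up to 3 counts, and 4 of 8 direct-pathway genes (Chrm4, Drd1, Pdyn, Slc35d3) were at 0, a share near the 49.1% of all genes. Ppp1r1b, which encodes DARPP-32, had 3 UMIs in WT and 0 in cKO, and Tac1 had 0 and 1. Drd2 (35.0 and 52.6 CPM), Adora2a (47.8 and 44.3 CPM) and Penk (12.7 and 14.8 CPM) were detected. Of the 9 indirect-pathway genes, 2 (Gpr52, Gpr6) were at 0.

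The cells fell into an Isl1 and a Six3 kind. In WT, 38 cells had Isl1 without Six3 (the Isl1 subgroup), 49 had Six3 without Isl1 (the Six3 subgroup) and 10 had both. In cKO the numbers were 31, 77 and 9, and 3 cells had neither and entered by Ebf1. Isl1 UMIs per cell in the WT Isl1 subgroup ran from 1 to 31 with a median of 8, and Six3 in the Six3 subgroup had medians of 7 (WT) and 6 (cKO). The subgroups did not differ much in depth, with medians of 8539 and 7780 UMIs in WT and 8652 and 7524 in cKO. The split rests on Isl1 and Six3, so the contrasts between the subgroups are also descriptions.

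**Figure D2:**
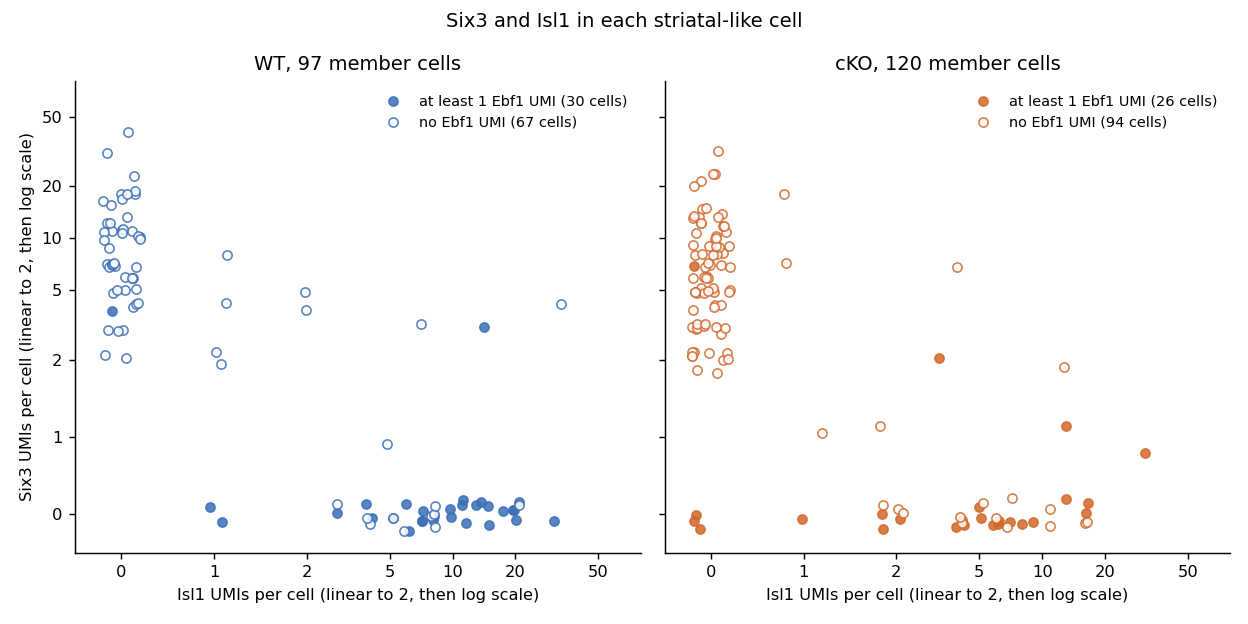
UMIs of Isl1 (horizontal) and Six3 (vertical) in each striatal-like cell of the WT library (97 cells, left) and the cKO library (120 cells, right), with small shifts added so that points do not cover each other; axes are linear to 2 and logarithmic above, and filled points had at least 1 UMI of Ebf1. Most cells lie along 1 of the axes, and the filled points lie mainly along the Isl1 axis.

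Ebf1 was nearly absent from the Six3 subgroup. It was found in 28 of 38 Isl1 cells (73.7%, 56.9 to 86.6) and 1 of 49 Six3 cells in WT, and in 18 of 31 (58.1%, 39.1 to 75.5) and 2 of 77 in cKO. Its level was 3518 CPM in the WT and 3237 CPM in the cKO Isl1 subgroup, against 2.07 and 3.08 CPM in the Six3 subgroup. The Isl1 subgroup held 1254 of the 1331 Ebf1 UMIs of WT striatal-like cells (94.2%) but 1098 of the 1757 of cKO (62.5%). The cKO cells with both Isl1 and Six3 held 624, and 1 of them alone 331 (18.8%).

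Genes of the indirect pathway were found in the Six3 subgroup. Drd2 had a UMI in 18 of 49 WT cells (36.7%, 23.4 to 51.7) and 27 of 77 cKO cells (35.1%, 24.5 to 46.8) of the Six3 subgroup and in none of the 38 and 31 cells of the Isl1 subgroup, for which the exact upper limits are 9.25% and 11.2%. Adora2a showed the same division, with 23 of 49 and 24 of 77 cells against 0 and 0, and Penk was in 3 of 49 and 10 of 77 cells against 0 and 0. In excitatory cells Drd2 was found in 0.165% and 0.146% and Adora2a in 0.351% and 0.397%, so that the shares in the Six3 subgroup lay above that background, whereas Penk, at 1.38% and 2.05% of excitatory cells, was closer to it. Sp9, the zinc-finger factor of indirect-pathway neurons, was found in 47 of 49 and 74 of 77 Six3 cells and in 8 of 38 and 5 of 31 Isl1 cells. The 9 genes of the indirect-pathway list summed to 1966 and 2344 CPM in the Six3 subgroup and to 112 and 109 CPM in the Isl1 subgroup. Among all 3666 genes with at least 100 UMIs in the subgroups, 1.47% were at least 2-fold higher in the Six3 subgroup of both libraries and 1.58% in the Isl1 subgroup. Sp9, Grik3 and Ptprm, the list members with that many UMIs, were among the former, but they passed the minimum through the Six3 subgroup, so their number is no support.

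The direct-pathway list lay on the Isl1 side as a sum, at low levels. Its 8 genes, led by Zfp521, summed to 191 CPM in the Isl1 and 93.2 CPM in the Six3 subgroup of WT. In cKO the sums were 215 and 38.5 CPM. Only Zfp521 of that list had at least 100 UMIs, with log2 ratios of Isl1 over Six3 subgroup of 0.78 in WT and 2.72 in cKO, and Drd1 was at 0 in both. The Isl1 subgroup also stood out by other genes. Besides Ebf1 and Isl1, the 8 largest differences in its favour were in Lingo2, Arid5b, Fam135b, Angpt1, Tox and Cntnap5b. Tox, a nuclear factor with an HMG box, stood at 794 CPM in the WT Isl1 subgroup and 53.9 CPM in the WT Six3 subgroup, and at 430 and 32.4 CPM in cKO. Pbx3, a TALE homeodomain factor, stood at 1619 against 147 CPM in WT and 991 against 156 CPM in cKO.

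Of 18 guidance genes with at least 100 UMIs in the subgroups, 1 was at least 2-fold higher in the Isl1 and 1 in the Six3 subgroup of both libraries, beside 1.58% and 1.47% of all genes. Dcc, the receptor of netrin, stood at 5400 CPM in the WT Isl1 subgroup and 1056 CPM in the Six3 subgroup, and at 4469 and 828 CPM in cKO, log2 ratios of 2.35 (2.21 to 2.50) and 2.43 (2.29 to 2.58). Slit3 went the other way, at 22.4 against 833 CPM in WT and 14.7 against 993 CPM in cKO. It reached the minimum of UMIs through the Six3 subgroup, so its place in that count is no support. It was present in 27 of 49 and 48 of 77 Six3 cells but in 2 of 38 and 3 of 31 Isl1 cells. Robo1, a Slit receptor, was higher in the Isl1 subgroup, at 2382 against 880 CPM and 2341 against 1414 CPM. The 8 largest differences in favour of the Six3 subgroup were in Six3, Six3os1, Slit3, Dach2, Ptprm, Zfp385b, Thsd7b and Sp9. Sox2, a factor of progenitors and of some neurons, followed the same side, in 46 of 49 and 68 of 77 Six3 cells against 8 of 38 and 4 of 31 Isl1 cells. The apical progenitor list, which holds Sox2, summed to 1019 and 1455 CPM in the Six3 subgroup and to 331 and 277 CPM in the Isl1 subgroup.

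Of the 14 striatal-list genes with at least 100 UMIs in the subgroups, 2 were at least 2-fold higher in the Isl1 subgroup and 3 in the Six3 subgroup of both libraries, beside the same 1.58% and 1.47%. Foxp2 (1058 against 205 CPM in WT, 852 against 259 CPM in cKO) and Zfp503 (659 against 191 CPM, 472 against 182 CPM) lay on the Isl1 side. Foxp1 (469 against 1133 CPM, 545 against 1295 CPM), Esrrg and Sp9 lay on the Six3 side. Esrrg and Sp9 reached the minimum through the Six3 subgroup, so the number on that side is no support. Esrrg was found in 32 of 49 and 48 of 77 Six3 cells and in 2 of 38 and 8 of 31 Isl1 cells, so its modest share over all striatal-like cells averaged over unlike subgroups. Bcl11b, Meis2 and Gad2 were present in nearly all cells of both subgroups, and Gad1, the other GABA-making enzyme, was in 46 of 49 and 63 of 77 Six3 cells but in 13 of 38 and 15 of 31 Isl1 cells.

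**Figure D3:**
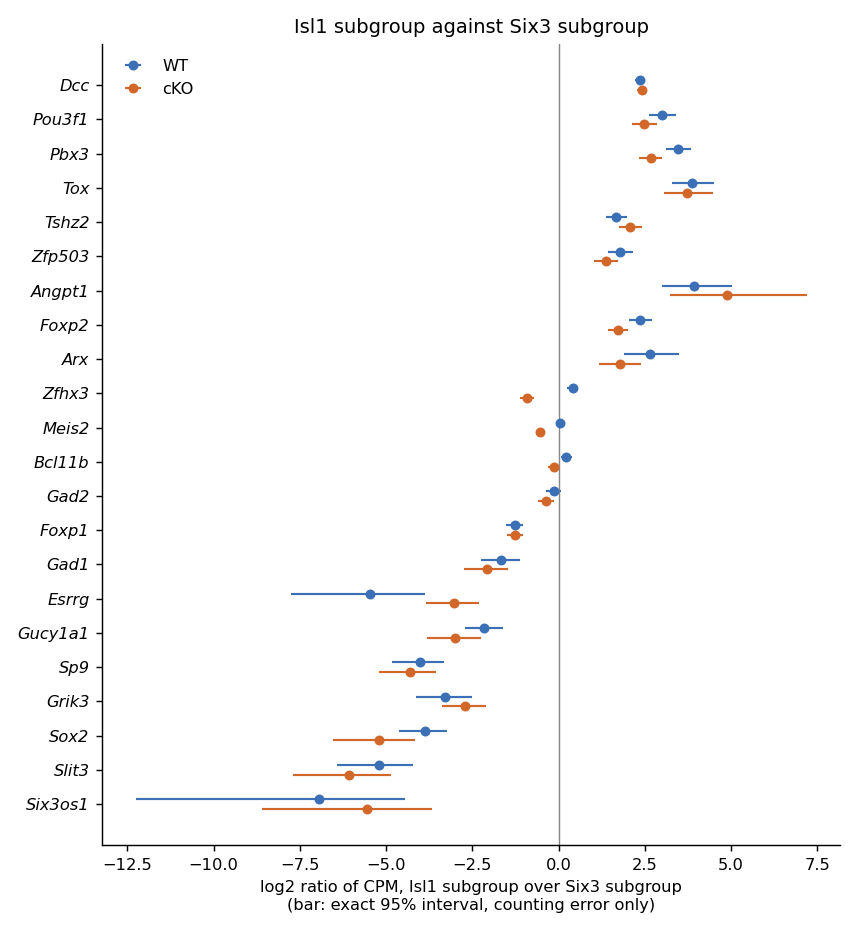
Log2 ratio of CPM, Isl1 subgroup over Six3 subgroup, for 22 genes in the WT library (blue) and the cKO library (orange); points are the ratios of summed UMIs and bars their exact 95% intervals, which cover counting error only. Dcc, Tox and Foxp2 lie on the Isl1 side and Sp9, Sox2 and Slit3 on the Six3 side in both libraries, whereas Zfhx3 lies at 0.41 in WT and -0.91 in cKO.

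The share of striatal-like cells among all cells was close in the 2 libraries. They made up 1.28% (1.04 to 1.56) of WT cells and 1.37% (1.13 to 1.63) of cKO cells, a log2 ratio of 0.09 with an interval of -0.31 to 0.49. Of Dlx-positive cells they made up 9.34% of 1038 in WT and 8.01% of 1498 in cKO, a log2 ratio of -0.22 (-0.62 to 0.18). Both intervals include 0, and a difference within them was not detectable with this number of cells. The direction of the ratio among all cells depended on the settings. It ran from -0.29 after thinning to 5000 UMIs to 0.27 with at least 1 UMI of Six3, Isl1 and Ebf1, and each interval included 0. The Isl1 subgroup was 39.2% (29.4 to 49.6) of striatal-like cells in WT and 25.8% (18.3 to 34.6) in cKO, and the Six3 subgroup 50.5% (40.2 to 60.8) and 64.2% (54.9 to 72.7). As shares of all cells, the Isl1 subgroup was 0.503% and 0.353%, a log2 ratio of -0.51 (-1.24 to 0.21), and the Six3 subgroup 0.649% and 0.877%, a log2 ratio of 0.43 (-0.10 to 0.98).

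The cut on each gene moved these numbers as follows. Exactly 3 Dlx UMIs, just inside the rule, were held by 3 WT and 16 cKO cells, and exactly 2, just outside with all else met, by 9 and 21 cells. Exactly 2 UMIs of Six3, Isl1 and Ebf1 were held by 2 WT and 15 cKO cells, and exactly 1 by 14 and 36 cells just outside. Cells that failed only by 3 or more Adarb2 UMIs were more numerous, 52 in WT and 73 in cKO. Their levels of Zfhx3 (535 and 514 CPM) lay below those of the striatal-like cells, whereas Meis2 (4847 and 3989 CPM) and Gad2 (802 and 837 CPM) lay near them and Esrrg (308 and 468 CPM) above. Cells that failed only by 3 or more UMIs of Top2a and Mki67 numbered 20 and 18, with Zfhx3 at 421 and 363 CPM. Of the chosen cells, 11 WT and 24 cKO cells held 1 or 2 UMIs of Top2a and Mki67.

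Most genes had close levels in the striatal-like cells of the 2 libraries. Of the 2094 genes with at least 200 UMIs, 48 (2.29%) were at least 1.5-fold higher in cKO and 12 (0.573%) at least 1.5-fold lower, and the median log2 ratio was -0.02. None of the 13 striatal-list genes lay beyond 1.5-fold either way, and their median log2 ratio was 0.05. Six3 stood at 564 CPM (517 to 614) in the WT library and 587 CPM (543 to 635) in the other, and Bcl11b, Foxp1, Foxp2, Meis2 and Zfhx3 were within 0.27 of 0 on the log2 scale. Zfp503 was lower in cKO, with a log2 ratio of -0.48 (-0.70 to -0.27), and so it was in the other Dlx-positive cells, at -0.71 (-0.95 to -0.46).

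Isl1, a gene of the rule, had one of the lowest ratios of cKO over WT. Isl1 stood at 475 CPM (433 to 522) in the WT library and 258 CPM (229 to 290) in the other, a log2 ratio of -0.88 (-1.10 to -0.66), and within the Isl1 subgroup, which Isl1 itself defines, the ratio was -0.79. Angpt1 (-0.99), Tox (-0.98), Pbx3 (-0.67) and Csmd3 (-0.62), all higher in the Isl1 subgroup of both libraries, were with Isl1 among the 8 genes with the lowest ratios, beside Edil3 (-0.69), Cdk2ap1 (-0.66) and Clstn2 (-0.64). Of all 2094 genes measured, 602 (28.75%) were higher in the Isl1 subgroup of both libraries. Clstn2 lay on the Six3 side in WT, with 9 UMIs in the Isl1 and 192 in the Six3 subgroup. The smaller share of Isl1 cells in cKO moved with these values. Its part in them was not tested. Ebf1, which marks the same subgroup, did not share the direction, with 1413 CPM in WT and 1620 CPM in cKO, and without the cell that held 331 UMIs the log2 ratio was -0.08 (-0.19 to 0.02) in place of 0.20.

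The genes highest in cKO included 2 for which 1 cell held much of the level. Alcam, a cell adhesion molecule, had 37 UMIs in WT and 164 in cKO, a log2 ratio of 1.95 (1.42 to 2.50), but 82 of the 164 lay in 1 cell. Without that cell the ratio was 0.98 (0.41 to 1.59), and in the cells without any UMI of Neurod1, Neurod2, Neurod6 and Tbr1 the ratio was -1.60. Fabp7, a fatty acid binding protein of radial glia, had 77 and 225 UMIs, a log2 ratio of 1.34, of which 88 of the 225 lay in 1 cell. Without that cell the ratio was 0.65 (0.24 to 1.07), and without the cells called doublets the ratio was -0.39. The other 6 were AC149090.1, a gene model named only by its clone, at 1.51 (1.03 to 2.01), the metabotropic glutamate receptor Grm7 at 1.48 (1.07 to 1.91), the neurotrophin receptor Ntrk2 at 1.48 (1.01 to 1.96), the ion channel Asic2 at 1.39, Nkain2 at 1.31 and the transcription factor Nr2f1 at 1.08. Grm7, Ntrk2, Asic2 and Nkain2 had no such ratio in the other Dlx-positive cells of the same libraries, where their ratios were 0.19, 0.05, -0.09 and -0.32, whereas AC149090.1 (0.71) and Nr2f1 (0.65) were higher in cKO there too. Whether these ratios differ between the cell groups was not tested.

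Many guidance genes lay on the higher side in cKO. Of 15 guidance genes measured, 6 were at least 1.5-fold higher in cKO and none lower, with a median log2 ratio of 0.43, beside 2.29% of all genes and a median of -0.02. Of the most abundant ones, Robo2 stood at 617 CPM (568 to 669) in the WT library and 1027 CPM (968 to 1089) in the other, and Nrg1, a ligand of ErbB receptors, at 926 CPM (865 to 989) and 1573 CPM (1499 to 1650). Their log2 ratios were 0.74 (0.59 to 0.88) and 0.77 (0.65 to 0.88), and in the other Dlx-positive cells 0.07 and -0.08. For Nrg1, 146 of 872 UMIs in WT and 251 of 1706 in cKO lay in a single cell each. Robo1 was higher by 0.29 (0.18 to 0.39), and Dcc was lower, at -0.45 (-0.53 to -0.37). Of 8 glutamate and GABA receptor genes, 2 were at least 1.5-fold higher and none lower, with a median of 0.37. The 14 neuron maturation genes had 2 higher, none lower and a median of 0.18. Markers of other cells moved with these values. The 10 apical progenitor genes summed to 740 CPM in WT and 1007 CPM in cKO, led by Sox2, and the 3 of them with enough UMIs had a median log2 ratio of 0.43, and the excitatory list summed to 944 and 1156 CPM. The medial eminence list went from 167 to 315 CPM, with none of its genes at enough UMIs, and the caudal eminence list from 199 to 362 CPM, with both of its genes measured at least 1.5-fold higher. Their part in the higher guidance genes was not tested.

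**Figure D4:**
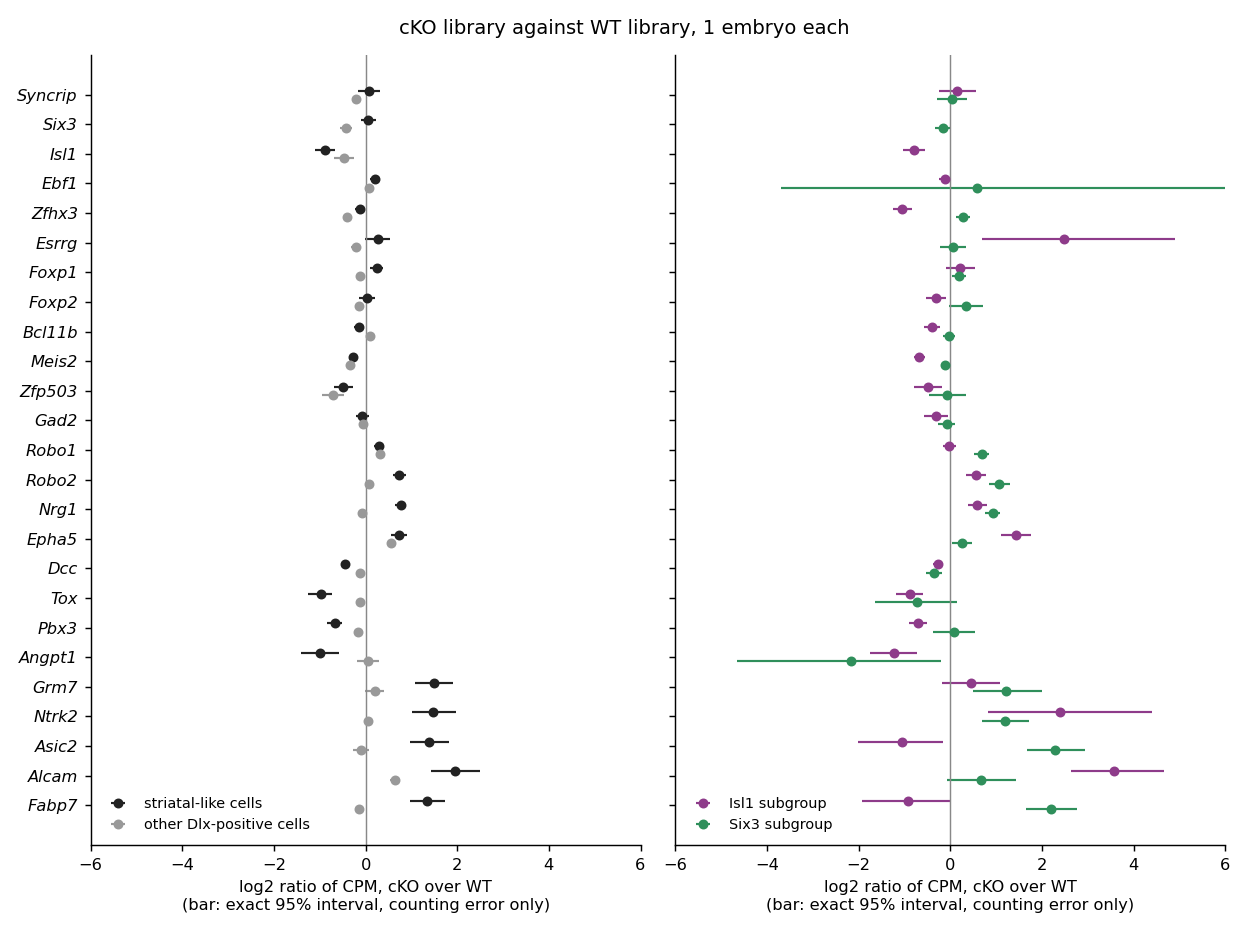
Log2 ratio of CPM, cKO library over WT library, with exact 95% intervals for counting error only, in striatal-like and other Dlx-positive cells (left) and in the Isl1 and Six3 subgroups (right). In the left panel Isl1, Tox and Angpt1 lie below 0 and Robo2, Nrg1 and Grm7 above 0 in the striatal-like cells, and in the right panel Zfhx3 and Asic2 lie on opposite sides in the 2 subgroups.

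The transcripts of excitatory neurons differed between the libraries in opposite ways in the 2 subgroups, and their values are given beside the ratios within them. The excitatory list summed to 511 CPM in WT and 2076 CPM in cKO in the Isl1 subgroup, and to 1336 and 809 CPM in the Six3 subgroup. A few cells carried these sums. In the Isl1 subgroup, the 4 of 38 WT cells with at least 3 UMIs of Neurod6 held 63.2% of the UMIs of the list, and the 8 of 31 cKO cells 93.3%. In the Six3 subgroup such cells were 7 of 49 in WT, with 83.3%, and 6 of 77 in cKO, with 59.0%. The median cell of each subgroup had 1 or 2 UMIs of the list. Scrublet called 2 WT and 5 cKO cells of the Isl1 subgroup doublets, and 4 and 6 of the Six3 subgroup. The part of these transcripts in the ratios within the subgroups was not tested. Nfib and Nfix, transcription factors that the study follows in the neocortex, stood at 754 and 263 CPM in the WT striatal-like cells and at 714 and 178 CPM in those of cKO, below the 3768 and 1146 CPM of WT excitatory cells.

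The NPC cultures gave a replicated view of the same genes in another material, at 16962903 to 22708400 counts per culture. A bulk culture cannot tell fewer cells of a type from less RNA per cell. Counts were compared with edgeR's quasi-likelihood test and Benjamini-Hochberg adjustment over 14432 genes, of which 2843 (19.7%) were higher and 2858 (19.8%) lower in cKO at an adjusted p of at most 0.05. Syncrip, counted over the whole gene, stood at 78.5, 79.9 and 80.1 CPM in WT and 90.0, 87.6 and 81.4 CPM in the cultures labelled cKO (log2 change 0.13, edgeR adjusted p = 0.18), so that these counts do not show the deletion. Fos, Egr1 and the other 8 immediate-early genes of the list were all higher in cKO cultures, with a median log2 change of 3.26. Their part in the results below was not tested. The Y-linked gene Uty was at 82.0, 60.2 and 0.0447 CPM in WT and 91.6, 0 and 0 CPM in cKO, so the cultures of each genotype were of unlike sex.

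Six3 had 150, 102 and 250 counts in WT (6.80, 5.69 and 11.2 CPM) and 0 in each cKO culture. The groups did not overlap. Taking 3 counts over the cKO group as the floor, Six3 was at least 157-fold lower in cKO cultures (edgeR adjusted p = 5.2e-07, at most 2.66e-05 with any 1 culture left out). Its antisense neighbour Six3os1 had 194, 181 and 447 counts in WT and 0 in each cKO culture, at least 258-fold lower by the same floor (edgeR adjusted p = 6.49e-05). The gene models of the pair overlap, and whether reads were counted by strand is not given in the sources used here, so their reads cannot be told apart. Isl1 had 1 count in all 6 cultures.

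Neuronal markers fell in the same cultures. Of 16 neuron maturation genes tested, 12 were lower and 1 higher in cKO (75% lower, beside 19.8% of all genes), with a median log2 change of -0.55. Of 8 excitatory neuron genes tested, 3 were lower and 1 higher. Neurod6 stood at 15.3, 11.9 and 21.8 CPM in WT and 1.08, 0.518 and 1.11 CPM in cKO (log2 change -4.14 ± 0.28 SE, edgeR adjusted p = 1.48e-07). Stmn2, a microtubule regulator of neurons chosen here after its values were seen, had a log2 change of -6.56 (edgeR adjusted p = 8.22e-10). The part of fewer neurons, or of less RNA in them, in the lower counts of Six3, Six3os1, Sp9 and Dlx2 was not tested.

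Of Six3, Isl1, Ebf1 and the 24 striatal-list genes together, 20 were tested, 5 were higher and 4 lower in cKO cultures, with a median log2 change of 0.08 beside 0.00 over all genes. Those shares, 25% and 20%, lay near the 19.7% and 19.8% of all genes. Sp9 stood at 3.27, 3.68 and 3.58 CPM in WT and 1.56, 0.575 and 0.434 CPM in cKO, without overlap (log2 change -1.997 ± 0.37 SE, edgeR adjusted p = 0.00077). Its log2 change was -2.79 without cKO culture 1 and -1.66 without cKO culture 3. With any 1 culture left out its edgeR adjusted p was at most 0.00764. Dlx2, of the rule, stood at 1.45, 1.23 and 3.71 CPM and 0.196, 0.345 and 0.289 CPM (log2 change -2.94 ± 0.52 SE, edgeR adjusted p = 0.000549). Its log2 change was -3.21 without WT culture 2 and -2.26 without WT culture 3. With any 1 culture left out its edgeR adjusted p was at most 0.00341. Dlx1 is listed at 0 in all cultures, as are Sox2 and Tubb3, so a gene listed at 0 throughout is not read as absent. Foxp2 went the other way, from 6.26, 4.63 and 5.28 CPM to 12.5, 13.4 and 11.6 CPM (log2 change 1.22 ± 0.16 SE, edgeR adjusted p = 4.07e-05). Meis1 (log2 change 0.52) and Tle4 (0.41) were also higher without overlap.

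The calls of the other 4 genes were lost when some of the cultures were left out, with the same direction each time. Ebf1 fell by 0.53 on the log2 scale (edgeR adjusted p = 0.039), but its adjusted p was 0.127 without WT culture 1, 0.0585 without cKO culture 1 and 0.179 without cKO culture 3, and its log2 change then lay between -0.64 and -0.38 over the 6 cultures left out in turn. Bcl11b also fell by 0.53 (edgeR adjusted p = 0.0239), with an adjusted p of 0.0785 without WT culture 2, 0.112 without WT culture 3, 0.0635 without cKO culture 2 and 0.103 without cKO culture 3 (log2 change -0.71 to -0.36). Rarb, the retinoic acid receptor of the striatum, rose by a log2 change of 0.44 (edgeR adjusted p = 0.0272), with an adjusted p of 0.0532 without WT culture 2, 0.0666 without WT culture 3, 0.0796 without cKO culture 2 and 0.14 without cKO culture 3 (log2 change 0.36 to 0.53). Mef2c rose by 0.34 (edgeR adjusted p = 0.00975), with an adjusted p of 0.0529 without WT culture 2 (log2 change 0.28 to 0.37). The levels of Ebf1, Rarb and Mef2c did not overlap between the genotypes, and those of Bcl11b did. How many of all genes tested were without overlap was not counted, so a lack of overlap here and above adds no support to a call. Zfhx3 (edgeR adjusted p = 0.245), Esrrg (0.91) and Zfp503 (0.603) did not pass the test.

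**Figure D5:**
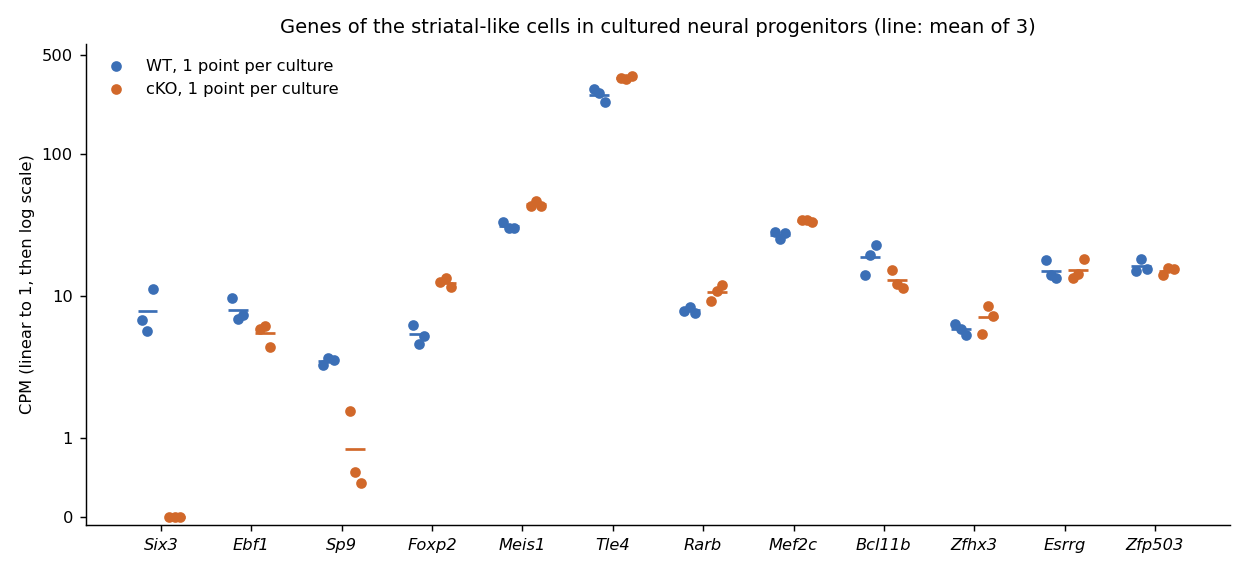
Levels in CPM, on an axis linear to 1 and logarithmic above, of genes of the striatal-like cells in 3 WT (blue) and 3 cKO (orange) NPC cultures; each point is 1 culture and each line the mean of 3. Six3 is at 0 in all cKO cultures and between 5.69 and 11.2 CPM in WT, Sp9 is lower and Foxp2 higher in cKO without overlap, and Zfhx3, Esrrg and Zfp503 overlap.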

How the data were processed

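For scRNA-seq of 1 WT and 1 cKO embryo, the deposited values are UMI counts of each gene in each barcode without normalization, written by Cell Ranger 7.0.0 per the file headers; the labels name mm10, while its annotation and the treatment of introns were not given in the sources used here. For NPC RNA-seq the authors deposited raw read counts per gene, aligned with HISAT2 to mm10, and the length listed for each of the 48440 genes equals its span. No column was left out for want of a label (0). The LACE-seq was not analysed here. The cells, the gene lists and the tests were chosen with earlier results of these data known.

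UMIs of the chosen cells were summed per library and scaled to CPM in Python 3.11.15 with exact intervals from scipy 1.17.1. No test between embryos was made. Scrublet, as built into Scanpy 1.11.5, marked doublets. Cultures were compared in R 4.3.3 with edgeR 4.0.16 (filterByExpr, TMM, quasi-likelihood, Benjamini-Hochberg at 0.05). Replicates were named by the labels' numbers. The scripts were tested on simulated data.

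Named genes were those of the rule, the markers, the striatal, direct-pathway, indirect-pathway, GABA and septal lists, the 4 most abundant of other lists, the 15 genes with the largest fold over all other and over other Dlx-positive cells, the 8 largest differences each way between libraries and between subgroups, and genes named by the study or in an earlier analysis of these data, with mitochondrial and sex genes and predicted genes of Gm or Rik names left out of the rankings. Exceptions are marked or given as checks. Alternatives were other cell filters, thresholds, thinning to 5000 UMIs, equal weights per cell, doublets removed, cells with excitatory transcripts removed, RLE scaling, no filter, DESeq2 1.42.0, a replicate block and leaving out each culture; removing cells with excitatory or microglial transcripts from the counts of genes, and leaving out the cKO cell with most UMIs for Alcam, Fabp7 and Ebf1, were added after seeing the data.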

Additional observations from a re-analysis of the deposited data

Results flagged for a closer look

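For 12 named genes the cKO-over-WT log2 ratio had opposite signs in the Isl1 and the Six3 subgroup, with neither interval including 0. The named genes included those with the largest differences between libraries and between subgroups, so this number does not say how common such splits are. Each library is 1 embryo, so the difference between the subgroups was not tested. Below, the difference is the ratio in the Isl1 subgroup minus that in the Six3 subgroup.

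Zfhx3 differed by -1.32 (-1.04 in the Isl1 and 0.28 in the Six3 subgroup), and the split was also seen without doublets and in cells without excitatory transcripts (-1.97 and 0.24). A further 6 genes had the same signs, lower in the Isl1 and higher in the Six3 subgroup of cKO. Meis1 differed by -1.58, Id4 by -1.20, Zfp804a by -0.98 and Nedd9 by -1.63. Rmst differed by -2.73 (-0.82 and 1.91) and Asic2 by -3.34 (-1.06 and 2.28), and without doublets the ratios in the Isl1 subgroup were -0.23 for Rmst and -0.30 for Asic2. In cells without excitatory transcripts Rmst was higher in cKO in both subgroups (1.73 and 2.06).

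The remaining 5 genes had the opposite signs. Neurod6 differed by 2.56 (1.48 and -1.08), Nfia by 1.62, Nfib by 1.78 (1.13 and -0.65) and Nfix by 2.01 (0.68 and -1.33). The summed excitatory list differed the same way in these subgroups, with 93.3% of its cKO UMIs in the Isl1 subgroup in 8 of 31 cells, and its part in these ratios was not tested. Neurod6 is one of the transcripts by which cells with excitatory transcripts were removed. In the cells left the ratios in the Isl1 and Six3 subgroups were 2.14 and -0.10 for Nfia, 0.38 and 0.03 for Nfib and 0.44 and 0.75 for Nfix. Clstn2, a calsyntenin, differed by 4.09 (2.63 and -1.46), from 9 and 53 UMIs in the Isl1 subgroup of WT and cKO and 192 and 94 UMIs in the Six3 subgroup.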

How the results depend on the processing

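Depth limited the number of cells found. When the rule was applied after thinning to 5000 UMIs, the 834 WT and 1011 cKO cells with fewer UMIs were left out. Of the other 6720 and 7770 cells, 90 and 104 were striatal-like before thinning. After it, 74 (1.10%) and 70 (0.901%) were chosen. The log2 ratio of these shares was -0.29 (-0.78 to 0.20), beside 0.09 over all cells without thinning. The cKO share was 1.78% with at least 1 UMI of Six3, Isl1 and Ebf1 and 1.04% with at least 5 Dlx UMIs, and the shares of Dlx-positive cells were 9.34% and 8.01%. The interval of the ratio included 0 under each of these settings.

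The 48 genes at least 1.5-fold higher and 12 lower in cKO became 151 and 55 with at least 100 UMIs per gene and 21 and 6 with at least 400. With equal weights per cell 24 were lower, after thinning 23 were higher, and in cells without UMIs of Neurod1, Neurod2, Neurod6 and Tbr1 30 were higher. Without the WT cell with microglial transcripts the counts were 47 and 17. Of 338 values of named genes between libraries, 277 moved by less than counting error and 40 changed sign. Of these, 2 belonged to genes past 1.5-fold, Alcam (-1.60 without excitatory transcripts) and Fabp7 (-0.39 without doublets). Between subgroups 9 of 345 values changed sign, from ratios of up to 0.53, and between the striatal-like and all other cells 5 of 512, from up to 0.66.

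In the NPC cultures 2787 genes were higher and 2895 lower in cKO with RLE scaling. The counts were 2792 and 3114 without a filter and 2627 and 2754 with DESeq2. Of the set of Six3, Isl1, Ebf1 and the striatal-list genes, 9 passed each time. Leaving out 1 culture gave 2068 to 3070 higher, 2040 to 3275 lower and 6 to 10 genes of that set. The replicate block gave 3189, 3216 and 9; same-numbered cultures correlated at 0.264, -0.047 and 0.116, and 3 of 6 correlated best with their own number, so the numbers were not taken as pairs.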
